A study of Mus musculus with 10 samples.

Results

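Matricellular proteins were examined in the adult mouse right atrium through 9 genes, out of 23337 in the deposited gene table: the tenascins *Tnc* and *Tnxb*, *Postn*, the thrombospondins *Thbs1*, *Thbs2* and *Thbs4*, *Spp1*, *Sparc* and *Fn1*. The class was chosen by the measured difference between the groups, because *Tnc* was among the largest increases in mice labelled *Tbx5* mutant. Differences of the 9 genes between the groups are therefore given as a description, without p-values, and tests are given only for other genes and for sex. RNA was sequenced from the right atria of 10 mice (strain given as "mix"), 4 labelled control and 6 labelled *Tbx5* mutant (R26Cre-driven TBX5 removal). In the mutants, a ubiquitous R26 promoter drove a tamoxifen-dependent Cre recombinase that removes exon 3 of *Tbx5*, with intraperitoneal tamoxifen at 0.167 mg per day for 3 days and tissue taken 1 week later. The labels describe this treatment for every library and give only "Control" as the genotype of the other mice, so the Cre allele and *Tbx5* alleles of the controls are not given there (the study used mice with the R26CreERt2 allele alone as controls for its other atrial libraries). Age is given as 8 to 10 weeks in one label and 6 to 8 weeks in the protocol. The design asks which genes change in the adult atrium when TBX5 is removed.

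Matricellular proteins are secreted into the extracellular matrix, where they bind cell-surface receptors and growth factors and modulate how cells adhere, move and signal, with little part in building the load-bearing scaffold. Many are low in healthy adult muscle and are made by fibroblasts, endothelial cells or macrophages during development, wound healing and fibrosis. Fibronectin is a structural matrix glycoprotein that carries binding sites for integrins, collagens and tenascins, and it is listed here beside them.

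Several libraries went against their labels or stood apart. *Tbx5*, the targeted gene, was at 275 to 475 CPM (read counts scaled to library size, after TMM normalisation) in the 6 mice labelled mutant and 184 to 224 CPM in the 4 mice labelled control. The difference was 0.94 on the log2 scale in favour of the labelled mutants (SE 0.15, edgeR quasi-likelihood test, Benjamini-Hochberg adjusted p = 0.000495), and no library of one group reached the other (two-sided exact permutation test over 210 splits, p = 0.00952, the smallest this design allows). Counts over the whole gene do not separate transcripts with and without exon 3, and groups are named here by their labels. Both controls labelled male (M1 and M2) had 7850 or more *Xist* reads and 0 *Ddx3y* reads, and both controls labelled female (F1 and F2) had at most 14 *Xist* and at least 1124 *Ddx3y* reads, opposite to the 6 labelled mutants. Total counts were 5703775 to 7095141 per library, and *Rn45s*, ribosomal RNA precursor, took 38.9% of mutant M3 and at most 1.49% of every other library. The atrial myocyte markers *Nppa*, *Myl7* and *Sln* were read in every library, and together with *Myl4*, *Tnnt2* and *Actn2* they summed to 44510 to 48970 CPM in controls and 26720 to 39150 CPM in labelled mutants. *Nppa* was the largest part, at means of 26830 CPM in controls and 17110 CPM in labelled mutants.

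For *Tnc* and *Postn*, whose levels differed most between the groups, and for *Tnxb*, the other tenascin and the only one of the genes with a T-box match, the 250 bases before a RefSeq transcription start (GRCm38.p6) are shown 5′ to 3′ on the strand of the gene, with motif matches in capitals.
Tnc (chr4:64047016-64047265, minus strand): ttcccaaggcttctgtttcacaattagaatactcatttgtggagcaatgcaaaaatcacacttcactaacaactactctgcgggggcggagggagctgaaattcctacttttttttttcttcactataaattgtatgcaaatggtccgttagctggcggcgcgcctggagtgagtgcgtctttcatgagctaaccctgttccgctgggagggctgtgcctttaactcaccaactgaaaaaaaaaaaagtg
Postn (chr3:54360857-54361106, plus strand): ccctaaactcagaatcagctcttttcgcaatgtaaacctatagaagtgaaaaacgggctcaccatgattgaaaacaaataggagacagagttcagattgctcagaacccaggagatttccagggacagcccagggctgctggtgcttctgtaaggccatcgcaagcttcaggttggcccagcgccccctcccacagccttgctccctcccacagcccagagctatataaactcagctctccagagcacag
Tnxb (chr17:34670285-34670534, plus strand): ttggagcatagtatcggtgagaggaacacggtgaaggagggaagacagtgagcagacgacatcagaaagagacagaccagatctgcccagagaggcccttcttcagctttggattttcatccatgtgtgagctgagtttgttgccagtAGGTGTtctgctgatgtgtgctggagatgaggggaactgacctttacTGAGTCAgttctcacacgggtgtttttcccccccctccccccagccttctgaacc
The motifs searched on both strands were the T-box core AGGTGT, AP-1 TGANTCA and TEAD GGAATG. Entries were found for 7 of the 9 genes (10 windows), and *Thbs1* and *Fn1* had none. *Tnxb* held AGGTGT at 102 bases and TGAGTCA at 55 bases before its start, and *Thbs4* held CATTCC at 197 and at 192 bases, a pair of matches that overlap by 1 base. The other windows, *Tnc* and *Postn* among them, held none of these letters. Of 32851 promoter windows of the same length, 11.8% held the T-box core, 6.75% the AP-1 motif and 12.6% the TEAD motif. A match is a run of letters in this window and not a bound site.

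Of the 9 genes, 8 passed the filter on low counts, and *Spp1* did not. Genes were called when the edgeR adjusted p was under 0.05, the fold was over 1.5 and the mean normalized signal of the controls was over 1. By this rule *Tnc*, *Postn*, *Thbs1*, *Sparc* and *Fn1* were higher in the labelled mutants (5 of 8, where 8.50% of the 13084 tested genes were called higher), and none was lower (7.16% of all tested genes were). *Tnxb*, *Thbs2* and *Thbs4* were not called. The median log2 difference was 1.14 over the 8 genes and -0.005 over all tested genes. Every labelled mutant lay above every control for *Tnc*, *Postn* and *Sparc*, as for 11.7% of all tested genes, and for none of the 8 did the mutants all lie below, as for 11.0%. Since this contrast chose the genes, nothing is read from these counts. In bulk tissue, more cells of a type and more RNA per cell cannot be told apart, nor can fewer cells and less RNA per cell.

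**Figure D1:**
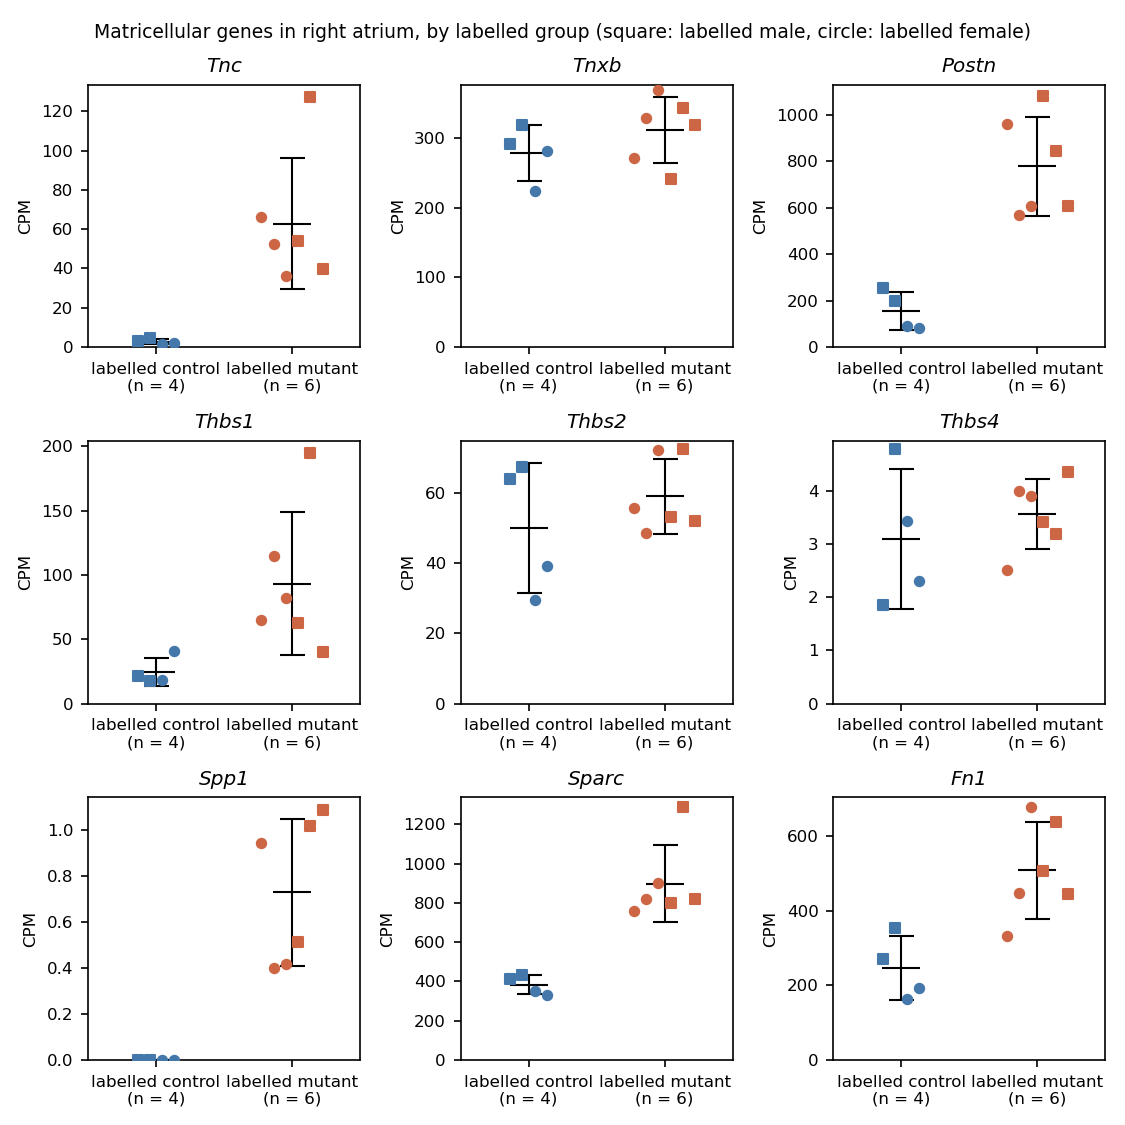
CPM of each of the 9 genes (vertical axes, from 0) in the 4 labelled control and 6 labelled mutant mice, 1 point per mouse, squares for mice labelled male and circles for female, with bars for mean ± SD. *Tnc*, *Postn* and *Sparc* do not overlap between the groups, *Thbs1* and *Fn1* touch at 1 pair of mice, and *Tnxb*, *Thbs2* and *Thbs4* overlap widely.

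*Tnc* encodes tenascin-C, a large hexameric glycoprotein of embryonic and injured tissue that weakens adhesion to fibronectin and signals through integrins. The gene lies at chr4:63959785-64047015 (GRCm38, minus strand) and its longest coding transcript has 26 exons. Among the controls its level was 3.29 CPM in M1, 4.47 in M2, 1.57 in F1 and 1.90 in F2, from 10 to 27 reads per library. In the labelled mutants it ran from 36.1 CPM in F3 through a median of 53.4 to 127 in M2. The lowest labelled mutant thus stood far above the highest control, and M2 stood apart from its own group. Group means were 2.80 ± 1.34 CPM (SD, n = 4) and 62.7 ± 33.4 CPM (n = 6), a log2 difference of 4.50 (SE 0.42, 95% interval 3.59 to 5.41), or 22.6-fold. By log2 difference *Tnc* ranked 3 of the 13084 tested genes. Without mutant M2 the difference was 4.17, and without M2 and M3 it was 4.23. Exons of *8030451A03Rik* on the opposite strand cover 176 bases of *Tnc* exons, and whether counting used strand is not given in the sources used here.

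*Tnxb*, the other tenascin, encodes tenascin-X, a matrix protein of connective tissue that associates with collagen fibrils (chr17:34670535-34719815, plus strand, 41 exons). It was at 292, 319, 223 and 282 CPM in controls M1, M2, F1 and F2, and from 241 CPM in M1 through a median of 323.5 to 369.5 in F3 among the labelled mutants. The ranges overlapped along most of their length. The log2 difference was 0.16 (SE 0.13, 95% interval -0.12 to 0.44). The value changed with a correction for transcript length. Genes with longer transcripts had lower log2 differences in these libraries (Spearman rho -0.33 across 11868 genes, which are not independent replicates). With each library's length trend removed *Tnxb*, the longest of the 9 coding transcripts at 12209 bases, was at 0.52 and still not called. The correction also raised *Tnc* (to 4.72), *Thbs1* (2.08), *Fn1* (1.31) and *Thbs2* (0.40). It lowered *Postn* (to 2.32), *Sparc* (1.14) and *Thbs4* (0.20). Whether length sets the value of *Tnxb* was not tested.

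*Postn* encodes periostin, a fascilin-domain protein secreted by activated fibroblasts that promotes collagen fibril assembly (chr3:54361109-54391037, plus strand, 22 exons). Control levels were 252.5 CPM in M1 and 196 in M2, against 89.5 in F1 and 80.9 in F2. The labelled mutants ranged from 569 CPM in F2 through a median of 725 to 1079 in M1. Controls were spread more widely on the log2 scale than labelled mutants (SD 0.81 and 0.39), and the groups did not overlap. Means were 155 ± 83.6 CPM (n = 4) and 777 ± 214 CPM (n = 6), a log2 difference of 2.33 (SE 0.32, 95% interval 1.63 to 3.02). It was 2.31 without mutant M2.

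*Sparc* encodes osteonectin, a collagen-binding glycoprotein that takes part in procollagen handling and fibril assembly (chr11:55394500-55423183, minus strand, 10 exons). On the log2 scale it had the smallest spread within each group among the 5 called genes. Controls were at 412 (M1), 434 (M2), 351.5 (F1) and 333 (F2) CPM, and labelled mutants ran from 760 in F1 through a median of 820 to 1289 in M2. No control reached the lowest labelled mutant, and 5 of the 6 labelled mutants fell between 760 and 899 CPM. The log2 difference was 1.23 (SE 0.16, 95% interval 0.90 to 1.56) for means of 383 ± 48.1 CPM (n = 4) and 898 ± 197 CPM (n = 6). Leaving out M2 gave 1.11.

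*Fn1* encodes fibronectin, which cells assemble into fibrils through integrins (chr1:71585520-71653200, minus strand, 46 exons). Controls M1, M2, F1 and F2 were at 270.0, 354, 162 and 194 CPM, and the labelled mutants ran from 331 CPM in F1 through a median of 476.5 to 677 in F3. Control M2 lay above mutant F1, so that the groups overlapped at their edges. The log2 difference was 1.05 (SE 0.23, 95% interval 0.56 to 1.54). Exons of the antisense gene *Apol7d* share 292 bases with *Fn1*.

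Among the thrombospondins, which bind calcium and matrix proteins, the trimeric members *Thbs1* and *Thbs2*, which also bind the receptors CD36 and CD47, parted. *Thbs1*, whose product can release latent TGF-beta (chr2:118111876-118127133, plus strand, 22 exons), was at 21.6, 17.7, 18.7 and 40.7 CPM in controls M1, M2, F1 and F2 and ran from 40.0 CPM in M3 through a median of 73.6 to 195 in M2 among the labelled mutants. Control F2 and mutant M3 nearly coincided, and every other labelled mutant lay above every control. The log2 difference was 1.92 (SE 0.39, 95% interval 1.08 to 2.76), 1.57 without mutant M2 and 2.29 without control F2. The lncRNA *Gm29233*, on the other strand, overlaps 208 exonic bases of *Thbs1*.

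*Thbs2* (chr17:14665500-14694235, minus strand, 22 exons), an inhibitor of angiogenesis, was at 64.0, 67.2, 29.3 and 39.1 CPM in controls M1, M2, F1 and F2. Labelled mutants lay from 48.5 CPM in F2 through a median of 54.2 to 72.5 in M2, inside the range set by the controls' extremes but for F3 and M2. The log2 difference was 0.24 (SE 0.21, 95% interval -0.20 to 0.69). *Thbs4*, a pentameric thrombospondin of tendon and muscle (chr13:92751590-92794818, minus strand, 22 exons), was low in both groups, at 3.10 ± 1.32 CPM in controls and 3.57 ± 0.658 CPM in labelled mutants. Its log2 difference of 0.21 carried a 95% interval from -0.36 to 0.78, which does not exclude a 1.5-fold increase, and rested on 13 to 30 reads per library.

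*Spp1* encodes osteopontin, a cytokine-like matrix protein of macrophages and mineralized tissue (chr5:104435118-104441050, plus strand, 6 exons). It had 0 reads in each of the 4 control libraries and 6, 3, 3, 3, 7 and 4 reads in mutants F1, F2, F3, M1, M2 and M3. Against a floor of 3 reads over the whole control group, which is 0.112 CPM, the pooled 0.695 CPM of the labelled mutants was 6.21-fold higher. The floor covers counting error in the controls only, and most of the labelled mutants sat at or near 3 reads. Counting error of the mutant reads and the spread between mice were left out, so the fold is not a lower bound. A same-strand unconfirmed transcript, *Gm42793*, shares 309 exonic bases with it, so reads could belong to either.

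**Figure D2:**
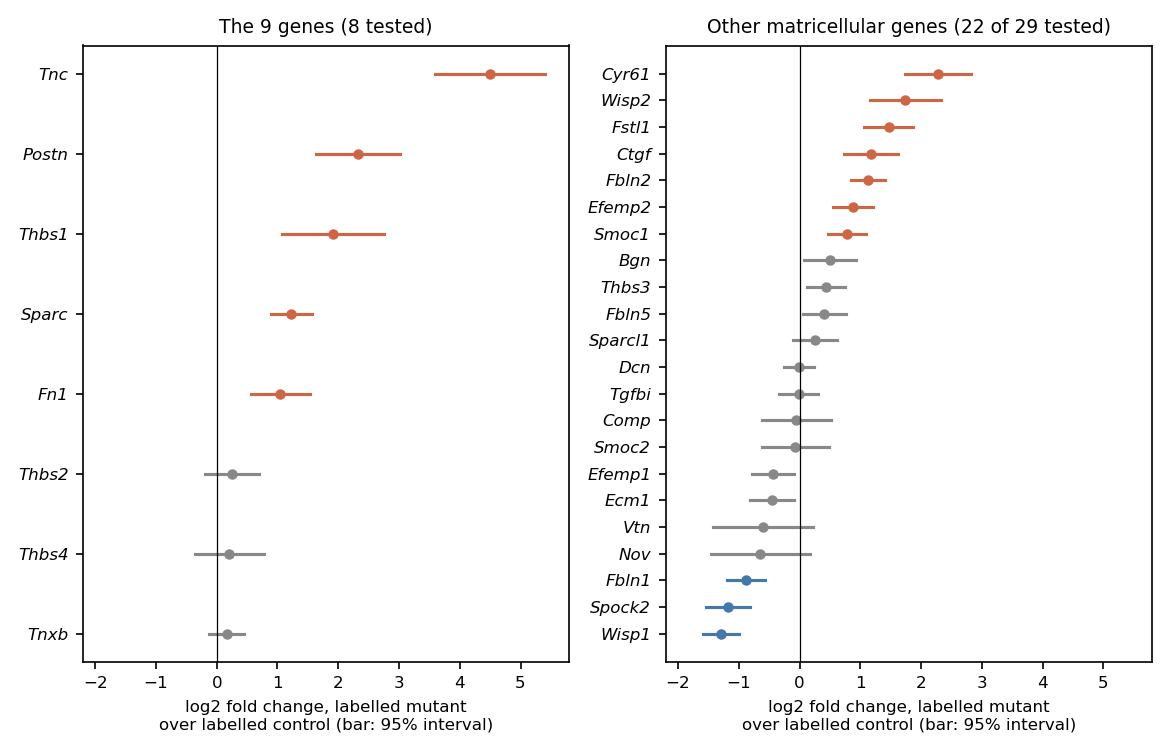
Log2 fold change of labelled mutant over labelled control (horizontal axis) with 95% intervals, for the 8 tested genes of the 9 (left) and the 22 tested genes among 29 other matricellular genes (right), orange where called higher, blue where called lower and grey where not called. *Tnc* stands at 4.50 on the left, and on the right the values run from 2.28 for *Cyr61* to -1.29 for *Wisp1*.

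Compared per kilobase of the longest coding transcript, *Sparc* was highest in both groups, and *Tnc* lay below *Thbs4* in controls and above it in labelled mutants. In controls *Sparc* was highest at 166 ± 20.9 CPM per kb, followed by *Postn* at 48.3 ± 26.1, *Fn1* at 29.5 ± 10.3 and *Tnxb* at 22.8 ± 3.30. *Postn* and *Fn1*, and *Fn1* and *Tnxb*, did not differ beyond the larger of their SDs. The place of *Postn* depends on the length chosen. Its longest coding transcript has 3205 bases, and the exons of all its transcripts together cover 8702. For *Tnxb* both lengths are 12209 bases. *Thbs2* (8.47 ± 3.15), *Thbs1* (4.22 ± 1.85), *Thbs4* (0.970 ± 0.411) and *Tnc* (0.395 ± 0.188) followed, each beyond the larger SD of its neighbour. In labelled mutants *Sparc* at 390 ± 85.5 CPM per kb, *Postn* at 242.5 ± 66.8, *Fn1* at 61.0 ± 15.6 and *Tnxb* at 25.5 ± 3.88 were highest. *Thbs1* (15.9 ± 9.53), *Thbs2* (10.0 ± 1.80) and *Tnc* (8.83 ± 4.71) came next and could not be ordered beyond their spread, above *Thbs4* (1.12 ± 0.206) and *Spp1* (0.485 ± 0.212). Of the summed per-kilobase level of the 9 genes, *Sparc* made up 59.2% in controls and 51.65% in labelled mutants, *Postn* 17.2% and 32.1%, *Tnxb* 8.13% and 3.38%, and *Tnc* 0.140% and 1.17%. Even after its 22.6-fold difference, *Tnc* remained far below *Sparc* and *Postn*.

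**Figure D3:**
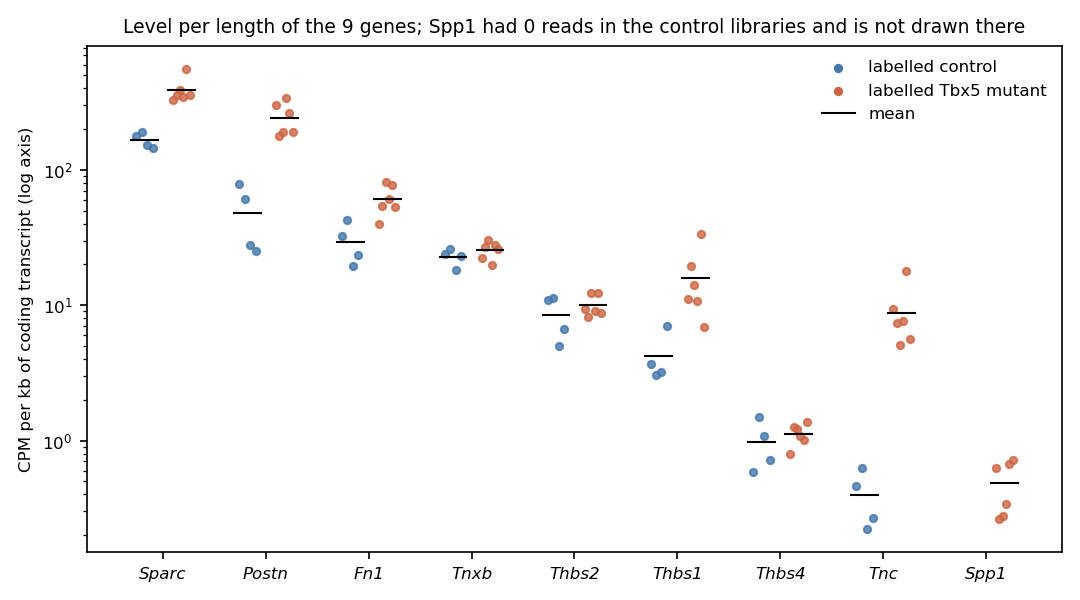
CPM per kb of coding transcript (vertical log axis) of the 9 genes in each mouse, blue for labelled control and orange for labelled mutant, with a line at each group mean. *Tnc* moves from 0.395 to 8.83 and reaches the levels of *Thbs1* and *Thbs2*, while *Sparc* and *Postn* stay on top.

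Sex was not used to choose the genes, so it was tested. Between the 3 labelled mutants labelled male and the 3 labelled female, none of the 8 tested genes passed the edgeR test (0.0611% of all tested genes did), and none had an unadjusted p under 0.05, as 1101 genes did. DESeq2 and limma also called none. *Tnc* was at 73.7 CPM in males and 51.7 in females, a log2 difference of 0.54 (95% interval -0.21 to 1.28, adjusted p = 0.717), with male M2 the highest mouse and male M3 the second lowest. For *Sparc* the difference was 0.23 (95% interval -0.14 to 0.60, adjusted p = 0.761), and for *Postn* 0.25 (95% interval -0.25 to 0.74, adjusted p = 0.820). *Thbs1* had the widest interval, from -0.79 to 1.20.

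The controls differed by their sex labels for some of the genes. *Postn* averaged 224 CPM in the pair labelled male and 85.2 in the pair labelled female. *Thbs2* averaged 65.6 and 34.2, *Fn1* 312 and 178, and *Tnc*, on few reads, 3.88 and 1.73. With 2 mice each, and with *Xist* and *Ddx3y* reads opposite to the labels, this was not tested on its own. In the test of whether the difference between the groups depended on labelled sex, none of the 8 genes passed (0.290% of all tested genes did). Those 38 genes included all 5 sex-linked genes looked up (*Xist*, *Ddx3y*, *Eif2s3y*, *Kdm5d* and *Uty*), and the rest were not checked for sex linkage. *Thbs2* came nearest, with an interaction of -0.92 on the log2 scale (95% interval -1.52 to -0.31, edgeR adjusted p = 0.241), followed by *Postn* at -1.15 (95% interval -1.94 to -0.36, adjusted p = 0.272). The unadjusted edgeR values of these genes were 0.00617 and 0.00797, and none of the other 6 was under 0.05. With the low-count filter removed *Postn* passed, at an adjusted p of 0.0386, and over all the alternatives the lowest adjusted p of the 8 genes ranged from 0.0386 to 0.585. The control sex labels were also exchanged, as the *Xist* and *Ddx3y* reads would have them. None of the 8 genes then passed the edgeR test, and 1 of all tested genes did. The interaction of *Postn* was 1.64 (95% interval 0.85 to 2.44, adjusted p = 0.216). It was 0.95 for *Thbs2* (adjusted p = 0.314), 0.94 for *Fn1* (adjusted p = 0.478) and 1.67 for *Tnc* (95% interval -0.29 to 3.63, adjusted p = 0.629). The unadjusted edgeR values were 0.000693, 0.00476, 0.0242 and 0.0879 in this order. Their signs turned with the labels, *Tnc* being at -0.60 as labelled. Fitted in mice labelled male alone, the log2 difference between the groups was 4.27 for *Tnc*, 1.91 for *Postn*, 1.20 for *Sparc* and -0.14 for *Thbs2*, and in mice labelled female alone it was 4.87, 3.06, 1.27 and 0.78. By *Xist* and *Ddx3y* reads, each of these fits set controls against mutants of the opposite sex. Sex and group cannot be told apart in them.

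Within the groups, the genes did not vary as one block. Deviations of log2 CPM from the mean of the mouse's own group, over the 10 libraries, gave *Tnc* a Pearson correlation of 0.76 with *Sparc*, 0.67 with *Postn*, 0.65 with *Thbs2*, 0.48 with *Fn1*, 0.38 with *Thbs1* and 0.28 with *Tnxb*. Mutant M2, which was highest for *Tnc*, *Thbs1* and *Sparc*, carried part of this: without it the values were 0.47 for *Sparc*, 0.82 for *Postn* and -0.16 for *Thbs1*. Of 9981 genes with a mean count of at least 50, the 5 whose deviations were most like those of *Tnc* were *Col5a3*, a minor fibrillar collagen chain (r = 0.95, rho = 0.96, 0.93 without M2), *Iqgap3* (0.93), *Sipa1* (0.92), *Rnmtl1* (0.92) and *Spry1* (0.91), an inhibitor of receptor tyrosine kinase signalling. The points share libraries and the number of libraries is small, so these values describe the 10 mice only. Controls labelled male also lay above those labelled female for *Tnc*, *Tnxb*, *Postn*, *Thbs2*, *Sparc*, *Fn1* and the 5 genes most like *Tnc*. How far this carries the correlations was not tested. *Col5a3* itself was not called between the groups, at a log2 difference of 0.37.

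**Figure D4:**
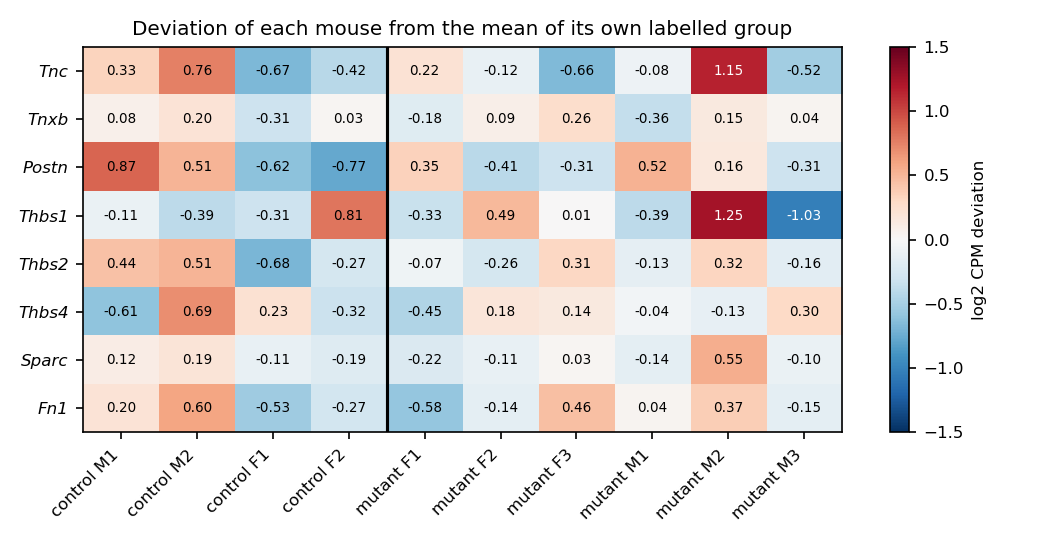
Deviation of log2 CPM from the mean of the mouse's own labelled group for the 8 tested genes (rows) in the 10 mice (columns), red above and blue below the mean, with the value in each cell. Mutant M2 is at 1.15 for *Tnc*, 1.25 for *Thbs1* and 0.55 for *Sparc*, and the controls labelled male lie above those labelled female for *Tnc*, *Tnxb*, *Postn*, *Thbs2*, *Sparc* and *Fn1*.

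Other matricellular genes moved in both directions. Of 29 listed, 22 were tested, and 7 rose and 3 fell in the labelled mutants by the edgeR test, beside 8.50% and 7.16% of all tested genes, with a median log2 difference of 0.12. The groups did not overlap for these 10 genes, and over all tested genes the labelled mutants lay wholly above the controls for 11.7% and wholly below for 11.0%. The CCN family of modular, integrin-binding proteins split. *Cyr61* (*Ccn1*), an immediate-early angiogenic member, rose from 18.9 to 91.9 CPM (log2 2.28, SE 0.25, adjusted p = 2.74e-05). *Wisp2* (*Ccn5*) rose by 1.74 (adjusted p = 0.000353), and *Ctgf* (*Ccn2*), long tied to fibrosis, rose from 357 to 810 CPM (log2 1.18, adjusted p = 0.000876). *Wisp1* (*Ccn4*) fell from 55.7 to 22.95 CPM (log2 -1.29, SE 0.14, adjusted p = 1.78e-05), and *Nov* (*Ccn3*) was at -0.65 with an adjusted p of 0.213.

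Fibulins split as well. *Fbln2*, an elastic-fibre and basement-membrane protein, rose by 1.13 (adjusted p = 3.23e-05) and *Efemp2* (fibulin-4) by 0.88 (adjusted p = 0.000729), whereas *Fbln1* fell from 478 to 260 CPM (log2 -0.88, adjusted p = 0.000559). Within the SPARC-related genes, which share an extracellular calcium-binding module with *Sparc*, *Fstl1* rose from 352 to 973 CPM (log2 1.47, adjusted p = 7.87e-05) and *Smoc1* by 0.78 (adjusted p = 0.00129), the proteoglycan *Spock2* fell by 1.18 on the log2 scale (adjusted p = 0.000183), and *Sparcl1* was at 0.25 (adjusted p = 0.275). The remaining thrombospondins *Thbs3* and *Comp* were not called, *Thbs3* at a log2 difference of 0.43 (adjusted p = 0.0361, under the fold threshold). *Tnn* and *Tnr*, the other tenascins, were too low to test, and *Dmp1* had no reads in any library.

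Receptors for these proteins were all measurable. Of 24 listed and tested, 5 rose in the labelled mutants and none fell, beside 8.50% and 7.16% of all tested genes, with a median log2 difference of 0.36. *Cd44*, a receptor for osteopontin and hyaluronan, rose from 46.4 to 110 CPM (log2 1.25, SE 0.14, adjusted p = 3.40e-05). *Itga9*, the integrin subunit that binds tenascin-C and osteopontin, rose from 73.0 to 139 CPM (log2 0.93, adjusted p = 5.49e-05), *Anxa2*, an annexin receptor of tenascin-C, rose by 0.92 (adjusted p = 8.65e-05), and *Ptprz1*, a receptor phosphatase that binds tenascins, rose from 2.15 to 4.38 CPM (adjusted p = 0.00561). *Itgb7*, a leukocyte integrin subunit at 1.30 CPM in controls, rose by 0.73 (adjusted p = 0.0381). This call was lost with DESeq2, without the low-count filter and on leaving out any 1 of the 4 controls or mutant F2, M2 or M3. The thrombospondin receptors *Cd36* and *Cd47* were at -0.02 (adjusted p = 0.897) and -0.29 (adjusted p = 0.0802). *Itgb6*, of the integrin that binds fibronectin and tenascin-C, was at -0.55 with an adjusted p of 0.0425 and a 1.47-fold decrease, under the fold threshold. It was called lower when control M1, control M2, mutant F1, mutant M1 or mutant M3 was left out.

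Markers of cell types that make these proteins also differed, and their part in the differences above was not tested. The counts of markers that rose or fell stand beside the same 8.50% and 7.16% of all tested genes. Of 10 fibroblast markers, the collagen genes *Col1a1*, *Col1a2* and *Col3a1* rose, by 1.31, 1.19 and 1.27 on the log2 scale, *Gsn* fell by 0.76, and *Pdgfra* (-0.40) and *Tcf21* (0.57) were not called. Summed fibroblast markers ran from 7583 to 9252 CPM in controls and from 7399 to 10970 CPM in labelled mutants. *Gsn* was the largest part of the control sum, at means of 5675 CPM in controls and 3344 CPM in labelled mutants. *Col3a1* went the other way, from 1433 to 3459 CPM. Of 12 macrophage markers 8 rose, *Trem2* and *Cd68* among them at 1.13 and 1.00, and 1 (*Lgals3*) fell, with sums of 543 to 891 CPM in controls and 831 to 1288 CPM in labelled mutants. Of 6 smooth muscle markers, *Acta2* and *Tagln*, which activated fibroblasts also express, rose by 1.98 and 2.01, the other 4, *Myh11* among them at 0.23, were not called, and the sum was 218 to 276 CPM in controls and 284 to 716.5 CPM in labelled mutants. None of the 6 endothelial and none of the 6 mesothelial markers was called, and neither was any of the 3 tested Schwann cell markers. Of the tendon and cartilage markers *Tnmd* had no reads in any library and 1 of 6 was tested and not called. Adipocyte markers were too low to test, with a sum of 20.8 CPM in mutant M2 and at most 4.14 CPM elsewhere. Of 6 genes listed for atrial myocytes, *Myl7* (-2.73), *Sln* (-0.98) and *Nppa* (-0.65, edgeR adjusted p = 0.0426) fell and *Tnnt2* (1.12) rose. *Myl4* (-0.44) and *Actn2* (0.33) were not called. *Tnnt2* and *Actn2* are not particular to atrial myocytes. Of 4 ventricular myocyte genes listed, *Myl3* and *Myl2* rose by 3.92 and 2.10, and *Irx4* was too low to test. *Myh7* was at 0.92 and not called (edgeR adjusted p = 0.208). Its range was 131 to 245 CPM in controls and 81.4 to 921 CPM in labelled mutants.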

How the data were processed

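Right atrial RNA from 4 mice labelled control and 6 labelled *Tbx5* mutant was sequenced as single-end reads. The labels describe both an mRNA kit with globin removal and rRNA-depleted total RNA. The authors deposited 1 table holding a raw read count per gene and library beside a normalized signal, the count over that library's size factor. The submitters' processing notes name FastQC, TopHat2 2.0.11, featureCounts, DESeq2 and mm10. The gene annotation is not given in the sources used here. Columns of the authors' own comparison (log2 fold change, its error, test statistic, p-values and fold) were not used, and 0 per-library columns belonged to no sample.

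Counts were filtered, TMM-scaled and tested with edgeR 4.0.16 (R 4.3.3, prior count 0.125) over all 10 libraries without covariates, and p-values were adjusted over the 13084 genes that passed the filter. Intervals are at 95%. CPM were computed on scaled library sizes. Labelled sex was tested in the same table with 4 groups of labelled genotype and sex. The script was tested on simulated data. Replicates are separate mice by their labels and no pair within a group agreed within sampling noise. Alternatives were other filters, scalings, prior counts, thresholds, DESeq2 1.42.0, limma 3.58.1, sex and replicate terms, a correction for transcript length (GENCODE M21 lengths) and omitted libraries. Reads have no molecular identifiers, so floors of 3 reads cover counting error only. The labels give no batch.

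Genes named are the 9 genes, *Tbx5*, up to 8 called genes with the largest differences on each list (other matricellular, receptors and 10 marker lists) with those read in no library, the 5 most like *Tnc*, and *Rn45s*, *Xist* and *Ddx3y*. Others (*Itgb6*, *Cd36*, *Cd47*, *Thbs3*, *Comp*, *Nov*, *Sparcl1*, *Tnn*, *Tnr*, *Pdgfra*, *Tcf21*, *Myh11*, *Myh7*, *Irx4*) were named after their values were seen. The genes and lists were chosen with earlier results of these data known.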

Additional observations from a re-analysis of the deposited data

Results flagged for a closer look

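Over 44 groups of values (each gene or summed marker list in each labelled group), 4 had a mouse set apart from the rest of its group by Dixon's test at 95%, where chance alone would flag about 2.2 (1 in 20). Mutant M2 was apart for *Tnc*, at 127 CPM against 36.1 to 66.4 CPM in the other 5 labelled mutants, and for *Sparc*, at 1289 CPM against 760 to 899 CPM. The same mouse was apart for the summed adipocyte markers *Adipoq*, *Cidec*, *Plin1* and *Ucp1*, at 20.8 CPM against 0 to 2.51 CPM. Control F2 was apart for *Thbs1*, at 40.7 CPM against 17.7 to 21.6 CPM in the other 3 controls. Without M2 the log2 differences were 4.17 for *Tnc* and 1.11 for *Sparc*, and without control F2 that of *Thbs1* was 2.29. What sets these mice apart was not tested.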

How the results depend on the processing

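Among the 9 genes, the 5 called ones were called under every alternative run, and in mice labelled female alone *Thbs2* was called too (0.78). By *Xist* and *Ddx3y* reads, the fits in mice labelled male or female alone set controls against mutants of the opposite sex. Sex and group cannot be told apart in those fits. The log2 difference of *Tnc* ranged from 4.17 to 4.92, of *Postn* from 1.91 to 3.06, of *Thbs1* from 1.55 to 2.35, of *Sparc* from 1.10 to 1.30 and of *Fn1* from 0.76 to 1.45. In mice labelled male alone the uncalled differences of *Tnxb* and *Thbs2* turned to -0.022 and -0.14. With the length trend removed *Tnxb* was at 0.52, and at 0.39 with the replicate block as well. Receptor genes called higher numbered 3 with a mean count of at least 50, 2 at a fold over 2, 10 with no fold threshold and 3 in mice labelled male. Receptor genes called lower numbered 1 (*Itgb6*) with no fold threshold and in mice labelled female, and 0 to 1 on leaving out each mouse. In mice labelled female 12 other matricellular genes were called higher. Over all genes 653 were called higher with a mean count of at least 50, 539 higher and 367 lower at a fold over 2, and 2129 higher and 1967 lower with no fold threshold. The interaction with labelled sex was passed by 1 of the 8 genes (*Postn*) without the low-count filter. The cause of these shifts was not tested, other than that a threshold or fewer mice changes what can be called. Same-numbered mice did not deviate together (correlation -0.096 to -0.045 over 4 pairs). So few pairs cannot decide whether the numbers pair mice. The replicate block gave log2 differences of 4.71 for *Tnc*, 2.60 for *Postn* and 0.96 for *Tbx5*, called 5 of the 9 genes higher and changed no call of theirs; among listed genes it called *Ecm1* lower and left *Itgb7* uncalled, as did DESeq2, a prior count of 5, no low-count filter and most single omissions. Omitting mutants M2 and M3 together was chosen after seeing the data. Depth limits *Spp1* (26 reads in all), *Thbs4* and the control level of *Tnc*.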
